A study of Mus musculus with 9 samples.

Results

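NFAT2-CA was compared with Control across all listed genes in primary mouse CD4+ T cells. The comparison takes its members from the sample groups: 3 libraries labelled NFAT2-CA and 3 labelled Control, 6 of the 9 libraries in the series. T cells from C57BL/6 mice were cultured in RPMI-1640 with serum and transduced with a retrovirus. The Control group carried the CTRL vector and the NFAT2-CA group carried a vector for NFAT2-CA. Everything else that the labels give (strain, cell type, medium, extraction kit and paired-end sequencing) is shared by both groups. The other 3 libraries, transduced with NFAT2-CARIT, entered the model to estimate the spread between replicates and are not described. The labels give no time after transduction, no sorting step for transduced cells and no share of cells that took up a vector. Nor do they state whether replicates are separate mice or cultures, so p-values measure the spread between these libraries, which may be technical.

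NFAT2 is the product of Nfatc1. In resting T cells NFAT proteins are held phosphorylated in the cytoplasm. Calcium entry after T cell receptor ligation activates the phosphatase calcineurin, which removes those phosphates and lets NFAT enter the nucleus, where it often binds DNA together with Fos and Jun proteins (AP-1). A constitutively active form, as the letters CA denote, is one that no longer needs the calcium signal. NFAT is known for driving cytokine and activation genes when AP-1 is present, and genes of anergy and exhaustion, including inhibitory receptors, when it is not.

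The deposited values, for 16500 genes, are in CPM, a read count relative to the library's total. From the smallest steps between values, 1 CPM rests on about 23.5, 31.7 and 24.0 reads in Control replicates 1, 2 and 3 and on 26.9, 23.9 and 23.7 reads with NFAT2-CA, which gives the relative depth of the libraries. The test took the 12798 genes with 1 CPM or more in any 3 of the 6 libraries. Fold changes are log2 differences of CPM + 1, NFAT2-CA minus Control, given as estimate ± SE (n = 3 libraries per group), and a gene is called when limma's adjusted p is under 0.05. On a principal component analysis of the 6 libraries, the groups lay apart on the first, which carried 90.2% of the variance (Control -45.2 to -44.0, NFAT2-CA 43.8 to 45.3).

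NFAT2-CA replicate 3 stood apart from replicates 1 and 2. Its score on the second component, which held 3.96% of the variance, was 18.4, against -7.7 and -10.6. It listed 114 genes at 0, against 263 and 293, and 13162 genes at 1 CPM or more, against 12557 and 12529. The nuclear long noncoding RNA gene Malat1 stood at 1468, 1719 and 1819.7 CPM in Control and at 1864, 1722 and 6225 CPM with NFAT2-CA, so replicate 3 alone was high. Neat1, the scaffold RNA of paraspeckles, was at 49.0, 66.0 and 72.8 CPM in Control and 177, 201 and 659 CPM with NFAT2-CA. All NFAT2-CA libraries were above Control for Neat1, and its change was 2.19 ± 0.51 (adjusted p = 0.0084) with replicate 3 and 1.59 (adjusted p = 3.1e-05) without it. Over all genes, leaving replicate 3 out gave 8252 calls, kept 7935 of the main calls and reversed 0 of them. Among the gene lists described below, leaving it out moved no count by more than 1.5 times except the single fall, Egr3, among the NR4A and Egr factors. The largest change was in the falls of mitochondrial ribosomal protein genes, from 25 to 19.

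Nfatc1 itself was higher in every NFAT2-CA library, at 342, 336 and 395 CPM against 224, 228 and 188 CPM in Control. The groups did not overlap for Nfatc1, as for 68.9% of all genes tested, and its change was 0.74 ± 0.08 (adjusted p = 2.8e-07). The sources used here do not say whether vector reads are counted in Nfatc1, and its values do not measure the amount of vector. The other NFAT genes did not rise. Nfatc2, which encodes NFAT1, fell from 199, 203 and 157 CPM to 74.0, 76.0 and 85.8 CPM (-1.23 ± 0.09). Nfatc3 fell by 0.47 on the log2 scale, and the tonicity-responsive member Nfat5 had 0.10 ± 0.14 (adjusted p = 0.56), with overlapping libraries. In bulk libraries, fewer cells of a type and less RNA per cell cannot be told apart, here and below. The sum of the 4 listed NFAT genes was 960 to 1160 CPM in Control and 921 to 1119 CPM with NFAT2-CA.

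Among genes around NFAT, falls outnumbered rises, as they did over all genes tested. Of 21 tested genes for calcineurin and the kinases and regulators that act on NFAT, 3 rose, 10 fell and 8 did not pass, with a median of -0.15 (1 higher and 4 lower in the authors' table). Over all 12798 genes tested the median was -0.07, and 28.8% were called higher and 37.5% lower. The calcineurin catalytic subunit gene Ppp3ca fell from 86.6, 84.8 and 83.2 CPM to 48.1, 44.5 and 46.2 CPM (-0.86 ± 0.07). Cabin1, an inhibitor of calcineurin, fell by 0.62. Rcan1, a calcineurin regulator and classical NFAT target, rose from 11.2, 9.95 and 9.17 CPM to 15.2, 18.4 and 16.2 CPM (0.67 ± 0.10, adjusted p = 2.7e-05). The authors' deposited table does not call Rcan1 (FDR 0.2).

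Store-operated calcium entry, the route that feeds calcineurin, had 4 genes higher and 8 lower of 14, with a median of -0.35. The channel genes moved in opposite directions. Orai1, the main pore subunit in T cells, rose from 30.3, 29.3 and 29.8 CPM to 66.2, 69.7 and 69.4 CPM (1.17 ± 0.06). Orai2 fell from 142, 139 and 139.7 CPM to 46.4, 44.3 and 49.2 CPM (-1.57 ± 0.06), and Orai3 fell by 0.58. Among the calcium pumps, Atp2b1 of the plasma membrane rose by 1.51 and Atp2a3 of the endoplasmic reticulum fell by 1.25. None of these 5 genes had overlapping groups, although the authors' deposited table does not call Orai3 (FDR 0.12).

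NFAT2-CA changed 8483 of 12798 genes (66.3%), 3689 higher and 4794 lower, so a call alone says little about a gene. At least 2-fold changes were found for 1794 genes (14.0%), 1057 higher (8.26%) and 737 lower (5.76%). Genes past 4-fold numbered 289 higher and 96 lower, and those past 16-fold 21 and 3. Of the called genes, 52.6% moved by less than 1.5-fold. The genes at least 2-fold higher went from 2.5% of all reads in Control to 7.88% with NFAT2-CA. Those at least 2-fold lower went from 6.46% to 2.3%. Of the 1057 genes at least 2-fold higher, 247 averaged under 1 CPM in Control, and 106 of the 737 at least 2-fold lower averaged under 1 CPM with NFAT2-CA. Genes in these 2 sets that were under the filter in 1 group entered the test through the other.

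The authors' deposited table calls 3602 of 16477 genes (21.9%), 1884 higher and 1718 lower. Of its calls, 3550 (98.6%) are called in the same direction by limma, which is 41.8% of the limma calls, and 0 in the opposite direction. It calls 1542 (86.0%) of the genes with at least a 2-fold change by limma. The excess of falls over rises depends on the scaling: with TMM factors limma called 4057 higher and 4310 lower.

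**Figure D1:**
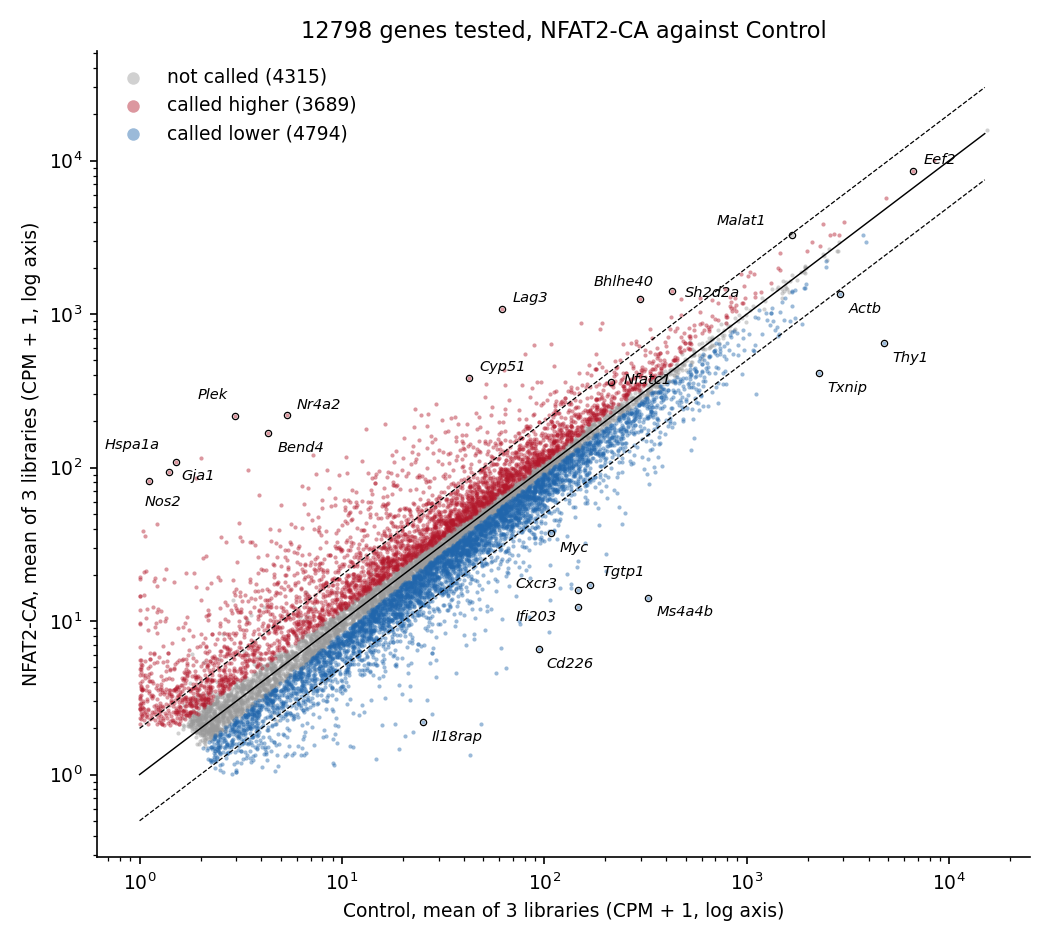
Mean CPM + 1 of each of the 12798 genes tested in Control (x axis) and NFAT2-CA (y axis), both log axes, with 3 libraries per mean; red, blue and grey mark genes called higher (3689), called lower (4794) and not called, the solid line marks equality and the dashed lines 2-fold. Nos2, Gja1, Hspa1a, Plek, Nr4a2 and Bend4 lie far above the line at low Control values, while Thy1 and Txnip are abundant genes below it.

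The largest rises were ranked among called genes that averaged 50 CPM or more and whose libraries did not overlap between groups. They formed a mixed group of stress, signalling, nuclear receptor and adhesion genes. Hspa1a (an inducible HSP70 chaperone) stood at 0.951, 0.158 and 0.420 CPM in Control and 108, 97.3 and 118 CPM with NFAT2-CA. Nos2, the inducible nitric oxide synthase, went from 0.0850, 0.0945 and 0.167 CPM, at or near the 3-read floor of 0.0947 to 0.128 CPM, to 85, 81.9 and 75.8 CPM. Plek, a protein kinase C substrate that acts on actin, went from 2.00, 2.08 and 1.83 CPM to 223, 218 and 206 CPM. Control libraries were close to 0 for these genes, so the size of their log2 changes (6.19 to 6.20) depends on the added 1 CPM. The gap junction gene Gja1, Hspa1b and Hdc, the enzyme that makes histamine, followed with changes of 6.07, 5.89 and 5.48. Hspa1a and Hspa1b are near-identical neighbours on chromosome 17, and reads may be split between them.

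Nr4a2, an orphan nuclear receptor induced by calcium signals, rose from 4.29, 4.41 and 4.25 CPM to 227, 219 and 211 CPM (5.37 ± 0.06, adjusted p = 4.1e-19). Bend4, a gene for a BEN domain protein, went from 3.06, 3.81 and 3.00 CPM to 166, 161 and 172 CPM (5.29 ± 0.07). Ahr, the ligand-activated aryl hydrocarbon receptor, rose from 2.93, 2.27 and 2.08 CPM to 96.9, 93.2 and 94.7 CPM (4.81 ± 0.09). For these 3 transcriptional regulators the lowest NFAT2-CA value was 93.2 CPM and the highest Control value 4.41 CPM. Lag3, a coinhibitory receptor that binds MHC class II, rose from 62.1, 65.2 and 55.1 CPM to 1095, 1115 and 1044 CPM (4.14 ± 0.06).

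The next genes in size were surface, protease inhibitor and transport genes. Serpinb1a, an inhibitor of neutrophil-type serine proteases, rose from 2.46, 2.87 and 3.33 CPM to 63.7, 68.2 and 64.8 CPM (4.10 ± 0.08). Sema4c, a membrane semaphorin, rose from 6.71, 6.14 and 5.71 CPM to 115, 119 and 125 CPM (4.07 ± 0.07). Cd24a, a small glycosylated surface protein that mature resting T cells carry at low levels, rose from 12.9, 13.3 and 10.1 CPM to 183, 177 and 173 CPM (3.78 ± 0.08). Like 68.9% of all genes tested, the 3 genes had no overlap between groups, which their selection required. Slc9b2, a sodium/proton exchanger gene, and Synpo, which encodes the actin-associated synaptopodin, had 3.61 ± 0.07 and 3.59 ± 0.10. Dusp16, a phosphatase that acts on JNK and p38 kinases, rose from 16.1, 16 and 13.7 CPM to 194, 187 and 194 CPM (3.57 ± 0.07).

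The largest falls, ranked under the same rule, were led by surface receptors and interferon-inducible genes. Ms4a4b, a tetraspanning membrane protein of T cells, went from 302, 299 and 375 CPM to 11.4, 10.8 and 17.2 CPM (-4.55 ± 0.17). Cd226, a costimulatory receptor that shares ligands with TIGIT, went from 89.8, 87.0 and 101 CPM to 5.69, 5.53 and 5.44 CPM (-3.83 ± 0.10). Sytl2, an effector of Rab27 in granule docking, went from 54.4, 56.8 and 58.3 CPM to 4.13, 3.14 and 3.54 CPM (-3.65 ± 0.10). The highest NFAT2-CA value of the 3 was 17.2 CPM, against a lowest Control value of 54.4 CPM. Cxcr3, the receptor that guides Th1 cells to interferon-induced chemokines, went from 144, 147 and 145 CPM to 12.2, 16.4 and 16 CPM (-3.22 ± 0.10).

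Further down the order of falls came genes of receptor signalling and of membrane traffic. Tespa1, a protein needed for T cell receptor signalling during thymocyte development, went from 57.9, 58.4 and 64.0 CPM to 5.66, 4.94 and 6.37 CPM (-3.20 ± 0.10). Ehd3, an endocytic recycling ATPase, had -2.99 ± 0.08, and Sema4a, a costimulatory semaphorin, had -2.98 ± 0.08. Pglyrp2, a peptidoglycan-cleaving amidase, had -2.95 ± 0.08, and Rflnb, a filamin-binding protein, had -2.90 ± 0.10. In all 4 the Control libraries lay between 67.6 and 107 CPM and the NFAT2-CA libraries between 8.18 and 13.3 CPM.

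**Figure D2:**
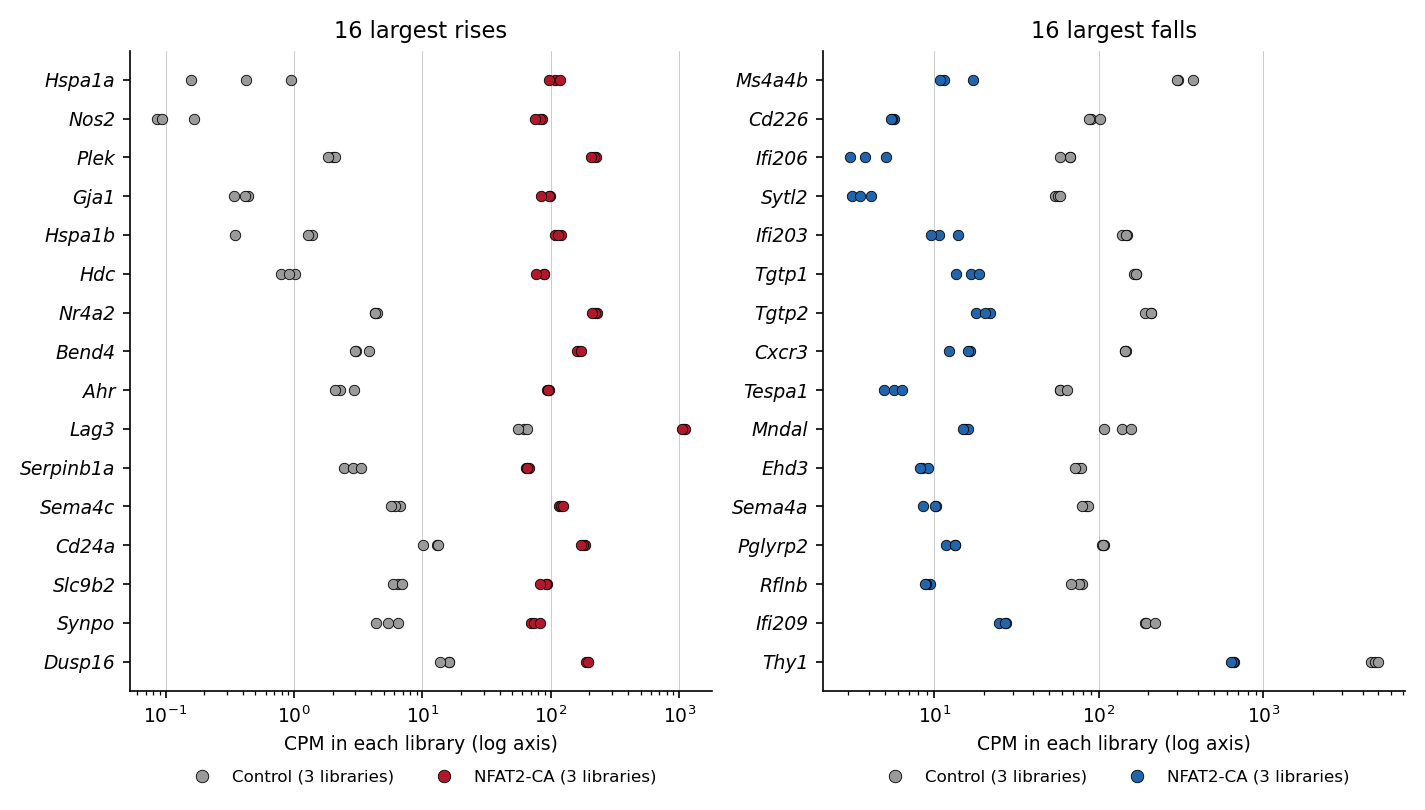
CPM in each library (log axis) for the 16 largest rises (left) and 16 largest falls (right) by log2 fold change among called genes averaging 50 CPM or more in whichever group was higher; grey points are the 3 Control libraries and coloured points the 3 NFAT2-CA libraries. Only genes whose libraries do not overlap between the groups were ranked, so separation in every row follows from the selection. Lag3 reaches 1044 to 1115 CPM with NFAT2-CA and Thy1 falls from 4521 CPM or more to 658 CPM or less.

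By number of reads, the changes were in other genes. Thy1, the abundant GPI-anchored surface protein of T cells, lost the most, from 4521, 4733 and 4989.8 CPM to 658, 657 and 632 CPM (-2.87 ± 0.05, adjusted p = 2.1e-16). Txnip, a brake on glucose uptake, went from 2268, 2264 and 2267 CPM to 451, 386 and 391 CPM (-2.47 ± 0.07). The other large losses were in Actb (beta-actin, -1.11 ± 0.05), Shisa5 (-1.13 ± 0.05), Coro1a (an actin regulator, -0.98 ± 0.07), Dgka (a diacylglycerol kinase that dampens T cell receptor signals, -0.96 ± 0.06) and Ptprc (CD45, -0.40 ± 0.07). Ahnak and Macf1, genes of very large cytoskeletal proteins, each had -0.88; without NFAT2-CA replicate 3, Macf1 had -1.09.

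The largest gains in reads went to the elongation factor genes Eef2 (7055, 6774 and 6017 CPM to 8822, 8879 and 8095 CPM) and Eef1a1 (8271, 7766 and 9327 CPM to 10184, 10638 and 9659 CPM). The gains of Eef2 and Eef1a1 were small in proportion, 0.38 ± 0.07 and 0.27 ± 0.07, and neither is called after quantile normalization (0.00 and 0.24, adjusted p = 1 and 0.46). Sh2d2a, which encodes the T cell adaptor TSAd, rose from 442, 445 and 397 CPM to 1397, 1477 and 1398 CPM (1.73 ± 0.06). Bhlhe40, a helix-loop-helix regulator of cytokine production, rose from 308, 303 and 274 CPM to 1268, 1281 and 1219.6 CPM (2.09 ± 0.06). Sdf4, a calcium-binding protein of the Golgi, rose from 883, 900.2 and 1011 CPM to 1867, 1895 and 1735 CPM (0.98 ± 0.07). The gene models Gm29216, Rpl10-ps3 and Gm15500 were also among the 10 gains, and since near-identical copies may share their reads, their values are uncertain.

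Named groups of genes were then read out by role. For each list the counts are of members that passed the filter, read beside the 28.8% called higher and 37.5% called lower over all genes tested. By the authors' deposited table, 42 of the counts differ by more than 1.5 times and 50 do not, and for most lists with such a difference both of its counts follow in brackets.

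**Figure D3:**
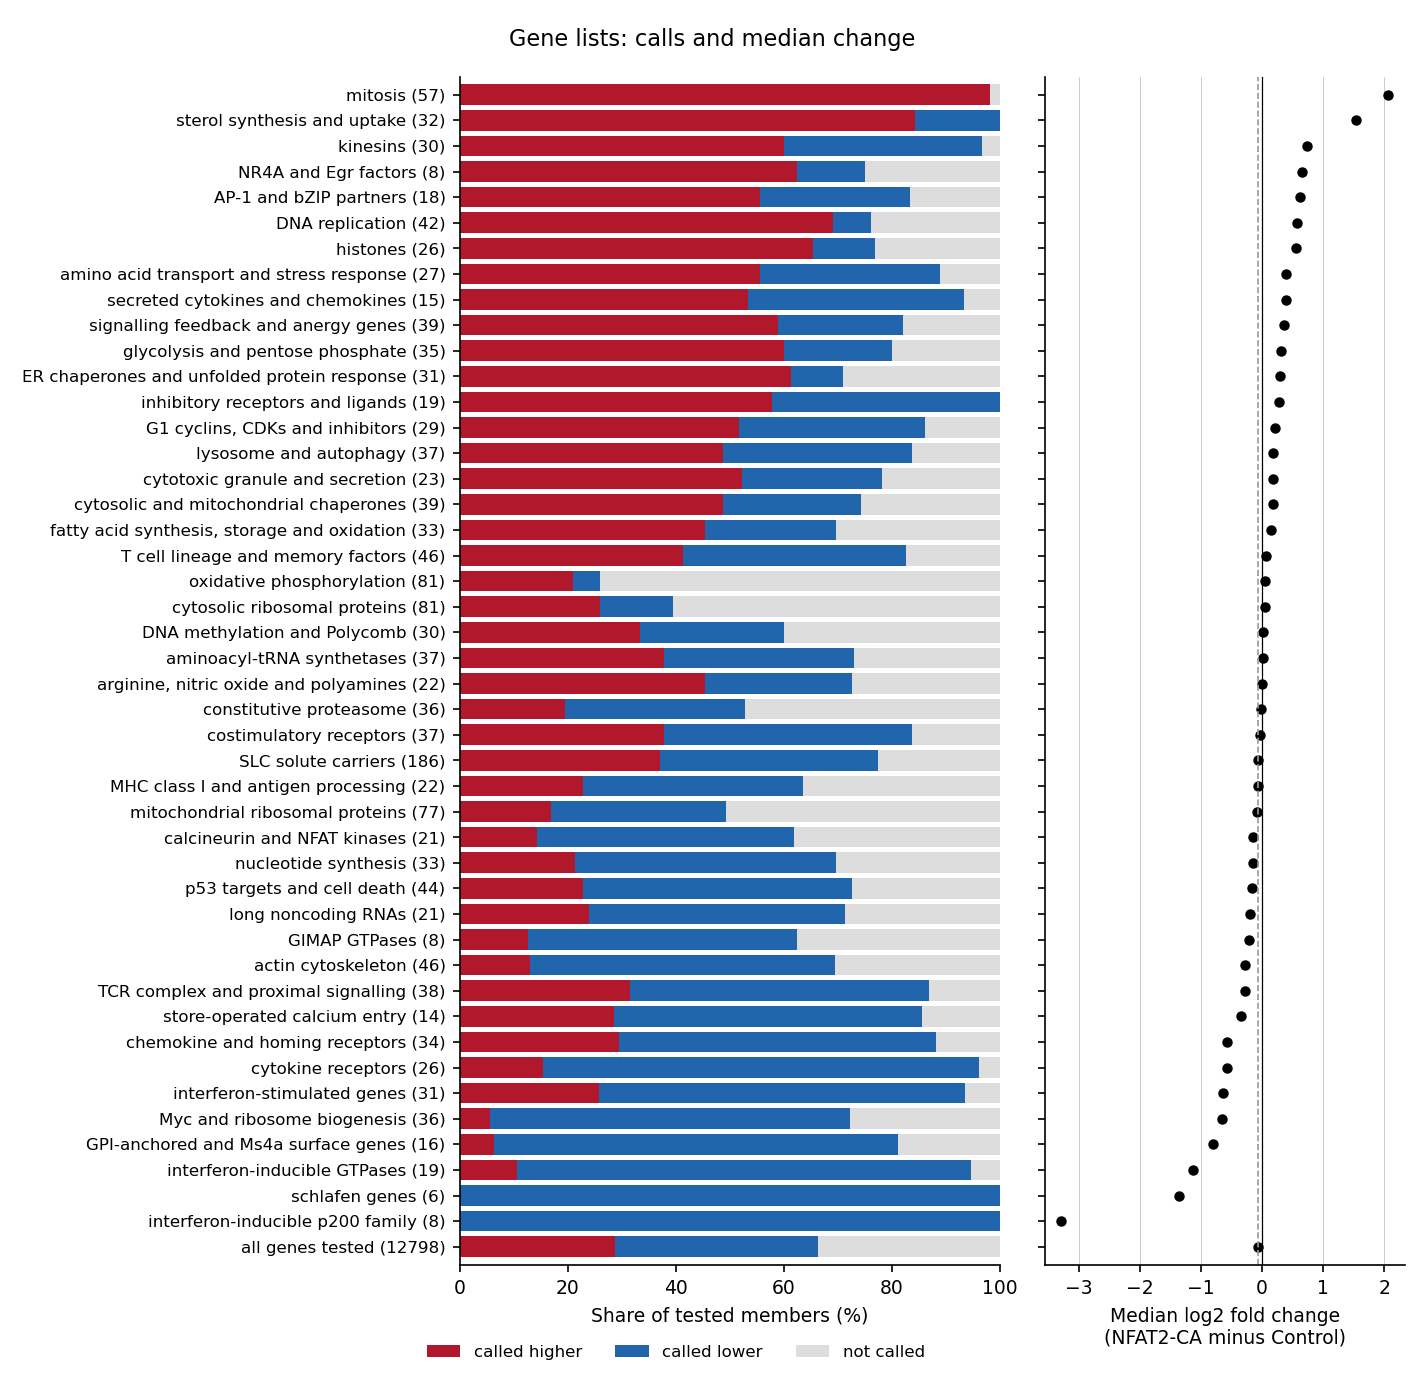
For each gene list, with the number of tested members in brackets, the left panel gives the share of members called higher (red), called lower (blue) and not called (grey), and the right panel the median log2 fold change; the bottom row and the dashed line are all 12798 genes tested. Mitosis (median 2.07) and sterol synthesis (1.54) stand at the top, and the interferon-inducible p200 family (-3.29) and the schlafen genes (-1.37) at the bottom.

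Cell division genes rose nearly as a block. Of 57 mitosis genes tested, 56 rose, 0 fell and 1 did not pass, with a median of 2.07, and 54 rose at least 2-fold. Their summed level went from 1878, 1879 and 1826 CPM to 6453, 6141 and 6043 CPM. The exception, chosen after its value was seen, was Pttg1, the securin gene, with 0.19. Ccna2, the cyclin of S phase and mitotic entry, rose from 24.7, 22 and 22.5 CPM to 161, 154 and 136 CPM (2.65 ± 0.07). Cdc25c, the phosphatase that activates the mitotic kinase, rose by 2.79, although its Control level was at most 4.83 CPM. Ect2, an exchange factor needed for cytokinesis, rose from 7.27, 10.1 and 7.46 CPM to 60.2, 54.7 and 52.7 CPM (2.63 ± 0.10). Kif4, a chromosome-bound motor, rose from 9.72, 8.60 and 9.21 CPM to 65.0, 62.1 and 55.3 CPM (2.60 ± 0.07).

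Promoters of mitotic genes are known for 2 short elements: the cell cycle genes homology region, read here as TTTGAA, and the CCAAT box bound by NF-Y. Both were searched on both strands in windows from 250 bases before to 50 after the RefSeq start (GRCm38.p6). A window was found for 48 of the 57 mitosis genes. TTTGAA was present in 34 of 48 (70.8%), against 12.2% of the windows of all 9090 tested genes with one. CCAAT was also present in 34 of 48 (70.8%), against 39.6% of all. Both were present in 29 of 48 (60.4%), against 5.36% of all. Neither element was confined to lists that rose. CCAAT was in 90.5% of histone windows and 73.7% of those of MHC class I and antigen processing (median change -0.07). Windows of endoplasmic reticulum chaperones also held it more often than mitosis windows, and most other lists held it less often. TTTGAA was most frequent in mitosis among lists with a share. Yet 4 of 8 p200 and 3 of 6 schlafen windows held it, and all members of those families fell. The median change was 2.11 for mitosis genes with TTTGAA and 1.86 for those without. A match is a description of letters and does not show binding. The windows of the 4 largest rises with both elements are printed, Aurka and Mki67 having been chosen after their values were seen. Both elements are in capitals, on either strand (the other strand reads TTCAAA and ATTGG). The windows differ in the position and order of the elements, and no spacing was measured. They are Ect2 at chr3:27153829-27154128 (minus strand), Kif4 at chrX:100625815-100626114 (plus strand), Aurka, the spindle pole kinase, at chr2:172370521-172370820 (minus strand), and Mki67, the proliferation marker Ki-67, at chr7:135716330-135716629 (minus strand). Aurka rose from 10.9, 9.83 and 8.50 CPM to 64.5, 58.3 and 59.6 CPM. Mki67 rose from 157, 168 and 129 CPM to 859, 815 and 947 CPM.
Ect2: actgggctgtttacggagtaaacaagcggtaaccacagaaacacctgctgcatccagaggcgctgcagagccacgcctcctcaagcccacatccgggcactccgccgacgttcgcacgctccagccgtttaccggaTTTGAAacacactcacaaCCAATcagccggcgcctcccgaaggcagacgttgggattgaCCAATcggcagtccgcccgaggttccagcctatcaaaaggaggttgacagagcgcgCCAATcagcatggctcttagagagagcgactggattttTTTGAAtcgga
Kif4: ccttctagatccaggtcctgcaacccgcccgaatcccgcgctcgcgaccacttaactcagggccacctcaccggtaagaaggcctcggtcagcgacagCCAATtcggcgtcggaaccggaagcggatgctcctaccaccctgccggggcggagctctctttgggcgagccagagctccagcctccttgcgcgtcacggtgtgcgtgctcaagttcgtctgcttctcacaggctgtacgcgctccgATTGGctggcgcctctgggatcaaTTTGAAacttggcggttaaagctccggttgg
Aurka: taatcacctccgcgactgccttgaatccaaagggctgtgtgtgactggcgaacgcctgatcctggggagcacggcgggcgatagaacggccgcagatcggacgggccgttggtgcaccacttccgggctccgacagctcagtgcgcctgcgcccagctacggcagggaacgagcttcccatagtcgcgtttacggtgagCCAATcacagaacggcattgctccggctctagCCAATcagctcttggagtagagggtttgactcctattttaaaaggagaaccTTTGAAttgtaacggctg
Mki67: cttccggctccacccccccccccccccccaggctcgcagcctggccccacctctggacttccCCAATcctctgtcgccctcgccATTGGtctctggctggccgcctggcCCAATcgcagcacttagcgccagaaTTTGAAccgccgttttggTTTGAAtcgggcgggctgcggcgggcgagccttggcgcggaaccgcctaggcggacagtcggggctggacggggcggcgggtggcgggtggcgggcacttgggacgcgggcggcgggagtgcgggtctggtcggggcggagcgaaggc

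Genes of DNA replication moved less than those of mitosis. Of 42 tested, 29 rose, 3 fell and 10 did not pass, with a median of 0.57 (16 higher and 0 lower in the authors' table). Lig1, the ligase that joins Okazaki fragments, rose from 17.6, 18.3 and 15 CPM to 84.2, 79.2 and 74.4 CPM (2.17 ± 0.08). Top2a, the topoisomerase that untangles replicated DNA, rose from 193, 200 and 172 CPM to 829, 813 and 749 CPM (2.08 ± 0.06). Cdc45 and Clspn, at the replication fork, had 1.85 and 1.76. The 3 falls were Chaf1b (-0.83 ± 0.10), Mcm2 (-0.21 ± 0.08) and Pola2 (-0.16 ± 0.06), and the libraries of the groups overlap for Mcm2. With TMM factors only 1 fall was called, Mcm2 (adjusted p = 0.11) and Pola2 (adjusted p = 0.12) being lost, and 1 was called after quantile normalization, without Control replicate 1 and without NFAT2-CA replicate 2. Mcm2 is also lost without Control replicate 2 (adjusted p = 0.19) or NFAT2-CA replicate 3 (0.088), and Pola2 without Control replicate 3 (0.063) or NFAT2-CA replicate 1 (0.079). The authors' deposited table calls none of the 3 (FDR 0.06, 0.63 and 0.72).

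Among kinesins, motor proteins that include several outside mitosis, 18 rose and 11 fell of 30 (median 0.74; 16 higher and 4 lower in the authors' table). The mitotic members Kif18b, Kif2c and Kif14 rose by 2.58, 2.46 and 2.28. Kif16b, Kif2a and Kif3b, motors of endosomes, microtubule ends and cargo transport, fell by 0.69, 0.66 and 0.56. Histone genes had 17 higher and 3 lower of 26 (median 0.55; 5 higher and 0 lower in the authors' table), but only 6 of the 17 were called with a filter of 10 CPM. H1f4 was at 7.05, 6.91 and 6.45 CPM in Control and 10.5, 12.9 and 24.8 CPM with NFAT2-CA, with a change of 1.04 and of 0.70 without replicate 3.

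The G1 machinery was divided. Of 29 cyclin, CDK and inhibitor genes of G1, 15 rose and 10 fell (median 0.21; 9 higher and 5 lower in the authors' table). Ccnd2, the D-type cyclin that links growth signals to the cycle, fell from 669, 674 and 587 CPM to 248, 259.5 and 245 CPM (-1.35 ± 0.06). Ccne1 (cyclin E1), Tfdp1 (the E2F partner) and Cdk6 fell by 0.94, 0.92 and 0.66. The E2F repressor E2f8 and the inhibitor Cdkn2c rose by 1.88 and 1.19.

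Myc and ribosome biogenesis genes fell while division genes rose. Of 36 tested, 2 rose, 24 fell and 10 did not pass, with a median of -0.65, and 12 of the falls were at least 2-fold. Myc, the growth regulator, fell from 109, 103 and 108 CPM to 37.8, 34.8 and 36.9 CPM (-1.52 ± 0.06). Subunits of RNA polymerase I, which transcribes ribosomal RNA, were among the largest falls. Polr1a went from 74.3, 82.0 and 64.9 CPM to 22, 20.1 and 22.6 CPM (-1.72 ± 0.09), and Polr1b from 12.8, 11.6 and 11.2 CPM to 1.64, 1.68 and 1.31 CPM (-2.34 ± 0.14). Dkc1, the pseudouridine synthase of small nucleolar particles, had -1.75 ± 0.08. The 2 rises were in the Myc network, in the antagonist Mxi1 (1.18 ± 0.06) and the partner Max (0.31 ± 0.06), which the authors' deposited table does not call (FDR 0.11). The E-box CACGTG lay in 9 of 30 windows of this list (30.0%), against 10.5% of all. The median was -0.28 for members with the E-box and -0.69 for those without.

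**Figure D4:**
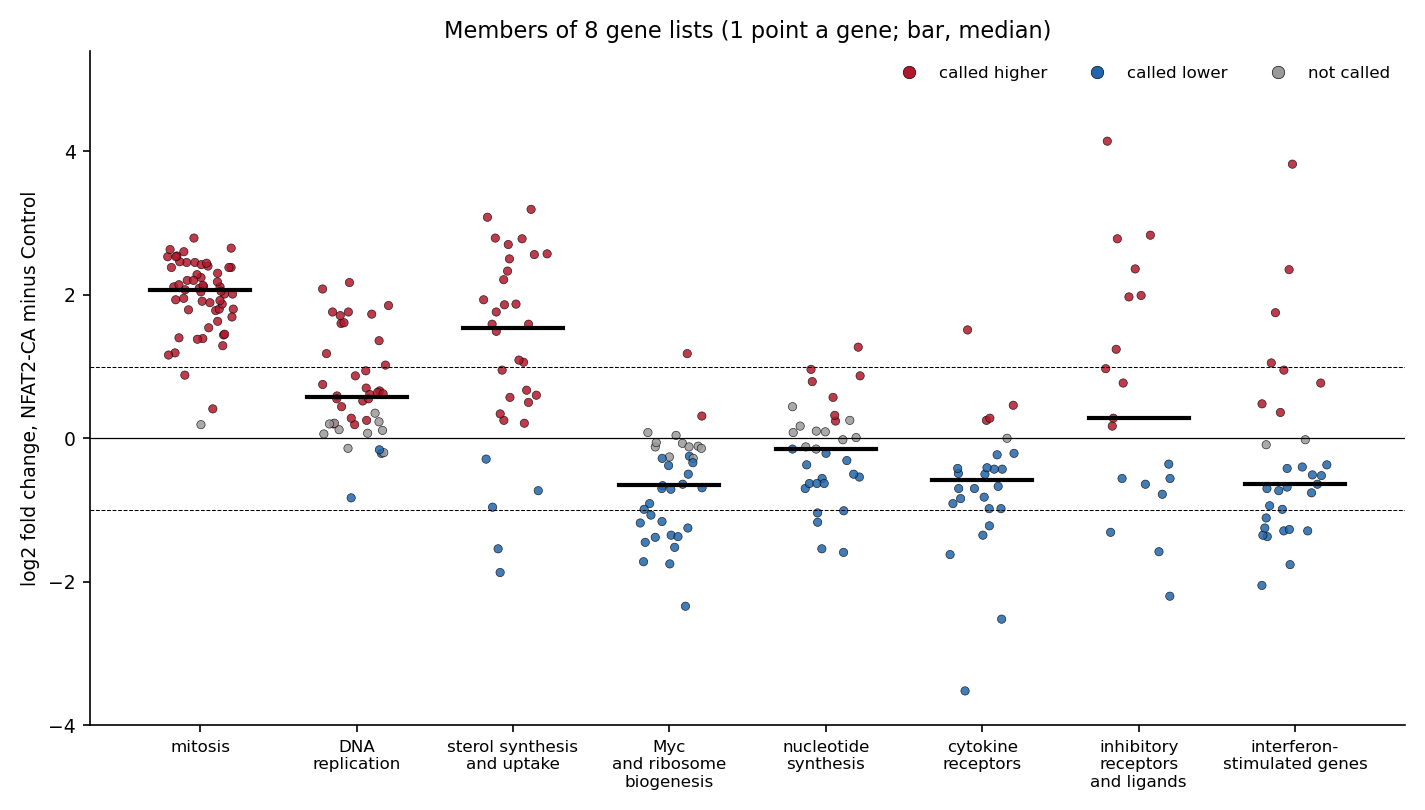
Log2 fold change (NFAT2-CA minus Control, y axis) of each tested member of 8 gene lists, 1 point a gene, red called higher, blue called lower and grey not called; bars are medians and dashed lines mark 2-fold. The mitosis members form a cloud around 2.07 and the ribosome biogenesis members lie mostly below 0 (median -0.65).

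Nucleotide synthesis genes moved in both directions. Of 33 tested, 7 rose and 16 fell (median -0.15; 4 higher and 9 lower in the authors' table). Gart, Atic and Adsl, enzymes of the purine pathway, fell from 42.4 to 47.5, 59.5 to 67.1 and 33.1 to 40.7 CPM in Control to 13.1 to 15.9, 25.8 to 29.0 and 16.3 to 17.1 CPM. Their changes were -1.59, -1.17 and -1.04. The pyrimidine gene Dhodh had -1.54. Not all purine genes were called lower: Paics rose by 0.24, and Gmps had 0.09 and Pfas -0.15, neither called; these and Dhodh were chosen after their values were seen. Adss, which commits IMP to AMP, rose from 129.7, 129.7 and 131 CPM to 325, 322 and 303 CPM (1.27 ± 0.05). The ribonucleotide reductase genes Rrm1 and Rrm2, which supply deoxynucleotides, rose by 0.79 and 0.87.

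Ribosomal protein genes held more members that did not pass. Of 81 cytosolic members, 21 rose, 11 fell and 49 did not pass, with a median of 0.05 (14 higher and 4 lower in the authors' table). Rpl31 and Rps26 rose by 1.05 and 0.89, and Rpl12 fell by 1.09. Processed copies of these genes may share reads, so single members are uncertain. Of 77 mitochondrial ribosomal protein genes, 13 rose and 25 fell (median -0.09; 1 higher and 2 lower in the authors' table). Of 37 aminoacyl-tRNA synthetases, which charge tRNAs, 14 rose and 13 fell (median 0.01; 11 higher and 5 lower in the authors' table). The cytosolic Cars, Aars, Eprs and Iars rose by 1.70, 0.98, 0.91 and 0.91, while the mitochondrial Rars2, Mars2 and Vars2 and the interferon-responsive Wars fell by 0.96, 0.89, 0.80 and 0.64. Mars2 is not called in the authors' deposited table (FDR 0.079).

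Most genes of sterol synthesis and uptake rose. Of 32 tested, 27 rose and 5 fell, with a median of 1.54 and 19 rises of at least 2-fold. Cyp51, the lanosterol demethylase, went from 39.8, 42.5 and 41.3 CPM to 404, 389.8 and 361 CPM (3.19 ± 0.06). Msmo1, a sterol oxidase, and Hmgcs1, the synthase upstream of the rate-limiting reductase, had 3.08 ± 0.06 and 2.78 ± 0.06. Srebf2, which encodes the factor that activates this pathway, rose from 365, 352 and 296 CPM to 704, 709 and 694 CPM (1.06 ± 0.07). The falls included the cholesterol exporters Abcg1 (88.7, 82.7 and 78.9 CPM to 27.7, 27.8 and 28.4 CPM) and Abca1 (-0.96 ± 0.14), and Mylip, the ligase that degrades the LDL receptor (-1.87 ± 0.12). Abca1 is not called in the authors' deposited table (FDR 0.096). Scap, the sterol-sensing escort of the Srebf2 product, fell by 0.73.

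In the list for fatty acid synthesis, storage and oxidation, 15 rose and 8 fell of 33 (median 0.15; 12 higher and 4 lower in the authors' table). The desaturase genes Fads2 and Scd1 rose by 3.53 and 3.09, with Scd1 going from 8.20, 8.12 and 6.58 CPM to 79.4, 71.8 and 65.5 CPM. Acsl3, which activates fatty acids at lipid droplets, rose from 17.1, 18.5 and 16.6 CPM to 134, 126 and 123 CPM (2.81 ± 0.06). The largest falls included the lysosomal lipase gene Lipa (-0.88), the carnitine carrier gene Slc25a20 (-0.67) and the carnitine transferase gene Cpt1a (-0.50). Not all oxidation genes were called lower: Ech1 rose by 0.54, and Hadha had -0.03, which is not called, both chosen after their values were seen.

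Glycolysis and pentose phosphate genes had 21 rises and 7 falls of 35 (median 0.31; 19 higher and 3 lower in the authors' table). Aldoc, an aldolase, rose from 177, 166 and 165 CPM to 409, 420.4 and 378 CPM (1.24 ± 0.06), and Eno2 and Ldhb, both at most 7.83 CPM in Control, rose by 1.43 and 1.17. The kinases that restrain pyruvate dehydrogenase moved in opposite directions: Pdk1 fell from 696, 693 and 777 CPM to 268, 266 and 250.2 CPM, and Pdk3 rose from 19.8, 19.6 and 18.5 CPM to 57.4, 53 and 50 CPM. Gapdh did not pass (0.04 ± 0.06, adjusted p = 0.6). Of 81 oxidative phosphorylation genes of the nuclear genome, 60 did not pass, 17 rose and 4 fell, with a median of 0.05 (5 higher and 0 lower in the authors' table). The count of rises there was 29 with TMM factors and 31 without Control replicate 3.

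Amino acid transport and stress response genes had 15 rises and 9 falls of 27 (median 0.39; 13 higher and 4 lower in the authors' table). Asns (asparagine synthetase), Psat1 (serine synthesis) and the transporter pair Slc7a5 and Slc3a2 rose by 2.46, 1.92, 2.06 and 1.52. Atf4, a bZIP factor known to activate such genes and counted in the bZIP list, rose from 263, 239.9 and 261 CPM to 566, 576 and 533 CPM (1.13 ± 0.06). Among arginine, nitric oxide and polyamine genes, 10 rose and 6 fell of 22 (median 0.00; 7 higher and 1 lower in the authors' table). Besides Nos2, Gch1, which makes the synthase's cofactor, rose from 10.7, 10.9 and 14.7 CPM to 22.1, 23.1 and 22.4 CPM (0.86 ± 0.10), and Odc1, the first enzyme of polyamine synthesis, rose by 0.76. Eif5a, the factor modified by a polyamine, fell by 0.55.

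Protein folding genes were read by compartment. In the endoplasmic reticulum 19 rose, 3 fell and 9 did not pass of 31 (median 0.30; 11 higher and 1 lower in the authors' table). The chaperone Hspa5 (BiP) rose from 243, 209.7 and 252 CPM to 515, 496 and 483 CPM (1.09 ± 0.07), Selenos rose by 1.61, and the stress sensor Ern1 by 1.01. Cytosolic and mitochondrial chaperones had 19 rises and 10 falls of 39 (median 0.17; 14 higher and 5 lower in the authors' table), with a far wider range. Beside Hspa1a and Hspa1b, Hspa4l, an HSP110-type nucleotide exchange factor, rose from 55.5, 53.5 and 41.9 CPM to 364, 327 and 356 CPM (2.78 ± 0.09). Hspa2 rose by 2.42. The HSP90 co-chaperones Fkbp5 and Ahsa1 fell by 1.15 and 0.79, and the chaperonin subunit Cct3 by 0.57. An exact match to a strict form of the heat shock element (GAA, TTC and GAA, each parted by 2 bases, on either strand) lay in 4 of 32 windows (12.5%), against 0.385% of all. The windows of Hspa1a, Hspa1b, Hspa2 and Hspa4l held no exact match. Imperfect forms of the element were not searched, so these windows may still hold them.

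Transcription factor lists showed rises and falls within each family. Of 18 tested AP-1 and bZIP partners, 10 rose and 5 fell (median 0.62). Fosl2 rose from 197, 194 and 182 CPM to 868, 879 and 891 CPM (2.20 ± 0.05), and the stress factor Atf3 from 4.55, 5.83 and 6.04 CPM to 63.3, 56.5 and 51.6 CPM (3.17 ± 0.10). Maf, a regulator of interleukin genes, fell from 67.7, 69.2 and 60.1 CPM to 16, 15.1 and 16.7 CPM (-1.98 ± 0.09). Bach2, a repressor that keeps T cells quiescent, fell by 0.66, Jund by 0.39 and Batf by 0.26. Batf is not called in the authors' deposited table (FDR 0.47).

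The 3 NR4A receptors rose together, Nr4a3 from 11, 10.1 and 7.50 CPM to 87.8, 86.8 and 99.2 CPM (3.14 ± 0.10) and Nr4a1 from 17.5, 16.3 and 13.6 CPM to 51.8, 58.1 and 64.7 CPM (1.82 ± 0.09). The Egr factors, other immediate targets of receptor signals, did not follow. Egr1 was at 22.4, 10.4 and 14.2 CPM in Control and 14.2, 8.25 and 13.7 CPM with NFAT2-CA (adjusted p = 0.4), and Egr2 was at most 1.27 CPM in any library (adjusted p = 0.36). Egr3 had -0.43 ± 0.16 (adjusted p = 0.026), but is not called without NFAT2-CA replicate 3 (adjusted p = 0.076) or in the authors' deposited table (FDR 0.78). The Egr repressor Nab1 rose by 1.14.

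Factors of T cell lineage and memory were balanced, 19 higher and 19 lower of 46 (median 0.07). Runx2 rose from 24.4, 23.3 and 18 CPM to 245, 238 and 239.7 CPM (3.41 ± 0.09), Ets2 from 30.1, 28.6 and 25.9 CPM to 264, 259 and 257 CPM (3.16 ± 0.06), and Irf4 from 35.3, 35.5 and 30.2 CPM to 217, 215 and 202 CPM (2.62 ± 0.07). The falls included factors known from naive and quiescent cells: Lef1 (620.0, 637 and 567 CPM to 246, 253 and 258 CPM), Tcf7 (-0.73 ± 0.05), Foxp1 (-1.15 ± 0.06), Klf3 (-1.18 ± 0.10) and Bcl11b (-1.06 ± 0.09). Of the lineage regulators, Gata3 of Th2 cells rose by 0.82 and Bcl6 of follicular helper cells by 0.85. Tbx21 of Th1 cells (-0.14 ± 0.06, adjusted p = 0.058), Foxp3 of regulatory T cells (0.25 ± 0.12, adjusted p = 0.085) and Prdm1 (0.04 ± 0.09, adjusted p = 0.73) did not pass. With TMM factors Foxp3 passed (adjusted p = 0.041), and without Control replicate 3 Tbx21 passed (adjusted p = 0.0085). Tox, a factor of exhausted cells, rose from 15.4, 12.2 and 14.5 CPM to 45.2, 46.7 and 46.3 CPM (1.65 ± 0.08), while Tox2 was at most 0.744 CPM in any library and was not tested.

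Inhibitory receptors and ligands were all called, 11 higher and 8 lower of 19 tested, with a median of 0.28 (7 higher and 4 lower in the authors' table). Beside Lag3, the ligand Cd200 rose from 26.2, 24.7 and 25.0 CPM to 191, 186 and 181 CPM (2.83 ± 0.07), Tigit from 17.5, 18 and 14.2 CPM to 118, 121 and 118 CPM (2.78 ± 0.08) and Btla from 38.4, 39.8 and 41.9 CPM to 167, 153 and 165 CPM (1.99 ± 0.08). Pdcd1, which encodes PD-1, stayed low: 4.12, 6.52 and 6.83 CPM in Control and 11.4, 10.1 and 9.91 CPM with NFAT2-CA (0.77 ± 0.14), and the authors' deposited table does not call it (FDR 0.22). Havcr2 (TIM-3) was at most 0.977 CPM in Control and at most 3.61 CPM with NFAT2-CA (1.24 ± 0.16). Ctla4 rose by 0.28 with libraries that overlap, and is not called in the authors' deposited table (FDR 0.057). Cd96, another receptor for the ligand of TIGIT and CD226, fell from 105, 101 and 110.0 CPM to 23.5, 22.4 and 20.7 CPM (-2.20 ± 0.07), so Tigit rose while Cd226 and Cd96 fell. The collagen receptor gene Lair1 fell by 1.58. With a filter of 10 CPM, 7 of the 11 rises remained in the count.

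Costimulatory receptors had 14 rises and 17 falls of 37 (median -0.03). TNF receptor family genes were among the rises: Tnfrsf9 (4-1BB) from 82.8, 80.2 and 100.2 CPM to 671, 654 and 561 CPM (2.83 ± 0.09), Tnfrsf4 (OX40) by 1.98 and Tnfrsf18 (GITR) by 1.35. Other members of that family fell, Tnfrsf25 by 0.85 and the death receptor Fas from 47.8, 51.8 and 57.2 CPM to 30.9, 27.4 and 29.6 CPM (-0.81 ± 0.08). Cd28 rose by 0.39, and the activation markers Cd69 and Cd44 had 0.99 ± 0.10 and -0.32 ± 0.05.

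Cytokine receptor genes fell, 21 of 26, with 4 higher, 1 not passing and a median of -0.58. The interleukin 18 receptor chains were the largest falls: Il18rap went from 24.5, 23.1 and 25.0 CPM to 1.38, 1.01 and 1.22 CPM (-3.52 ± 0.14) and Il18r1 from 18.1, 20.7 and 23.5 CPM to 2.83, 2.51 and 3.04 CPM (-2.52 ± 0.18). Il27ra fell from 105, 101 and 108 CPM to 32.1, 33.6 and 34.8 CPM (-1.62 ± 0.07), and Tgfbr2 from 353, 355 and 312 CPM to 127, 132 and 138 CPM (-1.35 ± 0.06). Il7r, the receptor for the survival cytokine interleukin 7, was at 902 to 981 CPM in Control and 903 to 981 CPM with NFAT2-CA (-0.00 ± 0.06). Il2ra (CD25) rose by 0.25 and Il12rb2 by 0.28.

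Chemokine and homing receptor genes had 10 rises and 20 falls of 34 (median -0.58), 6 of the rises and 10 of the falls at least 2-fold. The inflammatory receptor gene Ccr2 fell with Cxcr3, by 2.31, and the collagen-binding integrin gene Itga2 went from 26.9, 24.3 and 24.9 CPM to 1.78, 1.63 and 2.70 CPM (-3.13 ± 0.16). Ccr8, a skin and regulatory T cell receptor, rose from 11, 11.1 and 12.8 CPM to 62.6, 57.6 and 57.8 CPM (2.26 ± 0.08), and Cxcr4 from 60.9, 60.5 and 63.7 CPM to 195, 209 and 190.2 CPM (1.67 ± 0.06). Ramp3, a partner of calcitonin-family receptors, rose from 11.4, 11.2 and 12.2 CPM to 118, 116 and 94.7 CPM (3.13 ± 0.09). Adora2a, the adenosine receptor that restrains T cells, rose from 58.6, 49.8 and 52.7 CPM to 217, 225 and 216 CPM (2.01 ± 0.06). Ccr7, the receptor for entry to lymph nodes, rose by 0.59.

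Few secreted factors were expressed. Of 37 cytokine and chemokine genes in the list, 15 were tested, of which 8 rose and 6 fell (median 0.39). Il10 rose from 1.83, 1.86 and 1.33 CPM to 32.4, 34.4 and 28.8 CPM (3.62 ± 0.11), Il21 from 1.48, 0.922 and 1.08 CPM to 17.3, 13.5 and 15.9 CPM (2.94 ± 0.13) and Csf1 from 1.15, 0.945 and 1.67 CPM to 14.5, 17.3 and 18.5 CPM (2.99 ± 0.14). All 3 were close to 0 in Control. The 6 falls were Tgfb1 (223, 226 and 209 CPM to 124, 117 and 121 CPM), Il16 (-0.81 ± 0.05), the subunit gene Ebi3 (-1.42 ± 0.11), Osm (-0.73), Ccl5 (-0.63) and Tnf. Of the classical NFAT targets, Il2 was at most 0.564 CPM, Ifng at most 0.964 CPM and Csf2 at most 0.787 CPM in the 6 libraries, and none was tested. Il4 had 0.63 ± 0.14 and Tnf -0.54 ± 0.13, and the authors' deposited table calls neither (FDR 0.45 and 0.55).

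T cell receptor complex and proximal signalling genes had 12 rises and 21 falls of 38 (median -0.28). Zap70, the kinase recruited to the receptor, rose from 249.7, 240.4 and 241 CPM to 643, 674 and 598 CPM (1.38 ± 0.06), and its neighbour in function Cd3e from 409.7, 437 and 412 CPM to 969, 979.9 and 901 CPM (1.18 ± 0.06). Ptpn6, the inhibitory phosphatase SHP-1, rose from 169.7, 169 and 158 CPM to 454, 489.7 and 444 CPM (1.48 ± 0.06). Among the falls, the adaptor gene Grap2 (GADS) went from 365, 369.8 and 368 CPM to 141, 140.2 and 146 CPM (-1.36 ± 0.06), Pag1, which holds the inhibitory kinase CSK at the membrane, fell by 1.51, and Ubash3a, a negative regulator, by 1.32. The adaptor gene Sh2d2a, of the same list, rose by 1.73. Lck (0.01 ± 0.06, adjusted p = 0.88) and Cd4 (0.04 ± 0.06, adjusted p = 0.5) did not pass.

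Signalling feedback and anergy genes had 23 rises and 9 falls of 39 (median 0.36), 12 of the rises at least 2-fold. Spry1, an inhibitor of Ras signalling, rose from 4.93, 4.10 and 5.57 CPM to 39.7, 41.4 and 39.7 CPM (2.82 ± 0.10). Rgs2, which shortens G protein signals, rose from 15.1, 10.9 and 16.8 CPM to 92.7, 95.9 and 92.0 CPM (2.65 ± 0.11), and Dusp4, a MAP kinase phosphatase, by 2.30. Dusp6, the phosphatase of ERK, fell from 71.4, 62.8 and 63.6 CPM to 27.8, 25.3 and 27.5 CPM (-1.26 ± 0.07), while Dusp16 was among the largest rises. Dgka, Rgs3 and the ligase gene Nedd4l fell by 0.96, 1.07 and 0.80. Without NFAT2-CA replicate 3 the falls in this list were 13.

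Most tested members of the interferon-inducible lists fell. The 8 genes of the p200 family, sensors and regulators with a DNA-binding HIN domain, all fell, with a median of -3.29. Summed, they went from 583, 624 and 675 CPM to 87.5, 83.5 and 88.6 CPM. Ifi203 went from 139, 148 and 147 CPM to 10.6, 9.59 and 14.0 CPM, Ifi209 from 190.1, 193 and 219.5 CPM to 24.6, 27.4 and 27.0 CPM, Mndal from 108, 139 and 156 CPM to 15.3, 15.9 and 15 CPM, and Ifi206 from 67.1, 66.7 and 57.8 CPM to 3.05, 3.77 and 5.06 CPM. Ifi214, Ifi208 and Ifi213 had -3.59, -3.56 and -2.81. Aim2, the cytosolic DNA sensor of the inflammasome, fell least, from 38.5, 39.1 and 43.2 CPM to 31.4, 26.4 and 25.9 CPM (-0.52 ± 0.09), and the authors' deposited table does not call it (FDR 0.11). These genes are close copies that may share reads, so the family sum is firmer than its parts.

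All 6 schlafen genes, growth regulators of lymphocytes, fell (median -1.37), although the authors' deposited table does not call Slfn3 (FDR 0.38) or Slfn9 (FDR 0.33). Slfn5 went from 73.7, 74.1 and 66.6 CPM to 11, 13.3 and 16.5 CPM (-2.33 ± 0.11), Slfn1 from 223, 220.4 and 253 CPM to 52.7, 54.3 and 55.1 CPM (-2.08 ± 0.07), and Slfn2, needed for T cell quiescence, from 486, 462 and 576 CPM to 251, 262 and 223 CPM (-1.04 ± 0.08). Of 19 interferon-inducible GTPases, which attack the vacuoles of intracellular microbes, 16 fell, 2 rose and 1 did not pass, with a median of -1.13 and 10 falls of at least 2-fold. Tgtp1 went from 169, 163 and 167 CPM to 13.6, 16.6 and 18.7 CPM and Tgtp2 from 206, 189.9 and 207 CPM to 21.8, 18 and 20.3 CPM, the pair being near-identical. Gvin1 and Gbp9 had -2.31 ± 0.18 and -1.85 ± 0.12. The rises were Gbp2, from 181, 180.3 and 171 CPM to 350.4, 343 and 317 CPM (0.92 ± 0.06), and Gbp3 (0.45 ± 0.07), which the authors' deposited table does not call (FDR 0.098).

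**Figure D5:**
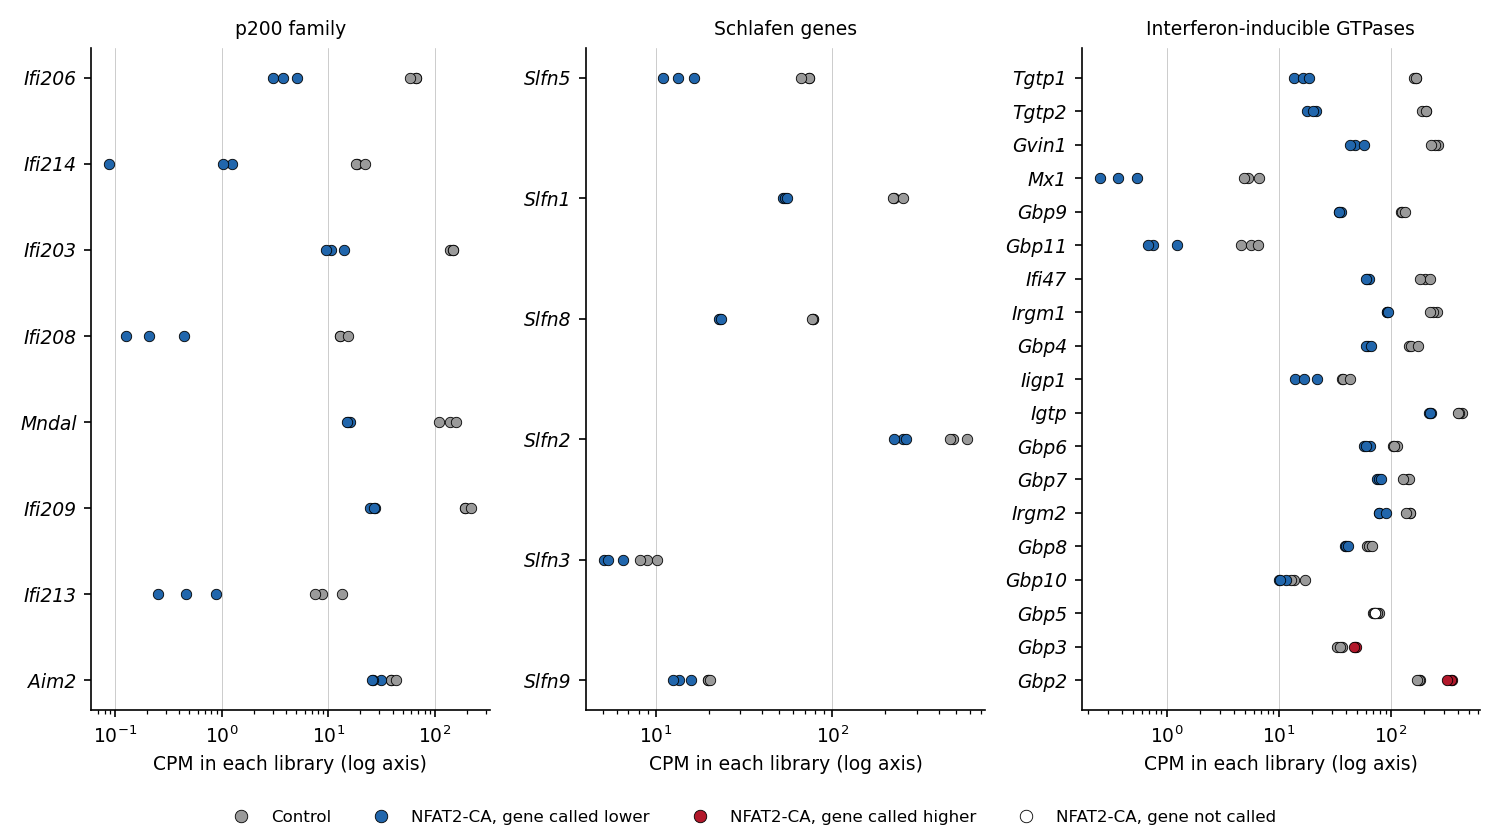
CPM in each library (log axis) for every tested member of the interferon-inducible p200 family, the schlafen genes and the interferon-inducible GTPases; grey points are the 3 Control libraries, and NFAT2-CA points are blue where the gene is called lower, red where called higher and white where not called. All 8 p200 and 6 schlafen genes are blue, and Gbp2 and Gbp3 are the 2 red GTPases.

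The core of an interferon response element, GAAA repeated after 2 bases of any kind, was searched on both strands of the same windows. It lay in 5 of 8 p200 windows (62.5%) and 3 of 6 schlafen windows, against 3.12% of the windows of all tested genes. The p200 genes are close copies, and the windows of Ifi206 and Ifi208 are nearly the same, so these matches are not independent. Genes of MHC class I and antigen processing, with a median change of -0.07, held it in 5 of 19 windows (26.3%). The element was also in 9 of the 10 GTPase windows found. Because windows were found for only 10 of the 19 GTPases, that share does not describe the family, and it includes Gbp2 and Gbp3, which rose. The windows of 3 p200 and 3 GTPase genes that hold the element are printed to show its surroundings, with the element in capitals. They are Ifi206 at chr1:173491269-173491568 (minus strand), Ifi214 at chr1:173535908-173536207 (minus strand), Ifi208 at chr1:173673415-173673714 (plus strand), Tgtp1 at chr11:48992197-48992496 (minus strand), Tgtp2 at chr11:49064163-49064462 (minus strand) and Irgm1 at chr11:48871371-48871670 (minus strand). Irgm1, a regulatory GTPase, fell from 259, 237 and 224 CPM to 92.5, 93.2 and 94.0 CPM, and its window holds 2 overlapping matches. Irgm1 was chosen after its value was seen. Ifi203 and Ifi47 fell more than Ifi208 and Irgm1, but their windows hold no match and are not printed.
Ifi206: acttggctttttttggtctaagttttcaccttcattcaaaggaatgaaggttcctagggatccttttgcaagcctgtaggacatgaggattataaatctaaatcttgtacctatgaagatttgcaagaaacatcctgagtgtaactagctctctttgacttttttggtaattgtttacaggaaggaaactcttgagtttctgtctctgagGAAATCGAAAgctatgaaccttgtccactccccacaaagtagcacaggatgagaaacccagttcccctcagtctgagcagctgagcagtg
Ifi214: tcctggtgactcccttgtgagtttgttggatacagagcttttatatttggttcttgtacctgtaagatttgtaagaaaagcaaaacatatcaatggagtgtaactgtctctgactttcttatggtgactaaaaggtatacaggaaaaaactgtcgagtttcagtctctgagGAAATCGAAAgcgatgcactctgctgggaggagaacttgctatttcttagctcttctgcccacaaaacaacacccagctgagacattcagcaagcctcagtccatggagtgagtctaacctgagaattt
Ifi208: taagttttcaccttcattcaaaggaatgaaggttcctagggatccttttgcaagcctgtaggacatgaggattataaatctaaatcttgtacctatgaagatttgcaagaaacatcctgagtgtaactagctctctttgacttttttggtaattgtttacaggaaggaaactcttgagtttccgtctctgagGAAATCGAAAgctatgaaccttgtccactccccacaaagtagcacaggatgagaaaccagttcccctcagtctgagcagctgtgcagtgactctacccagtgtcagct
Tgtp1: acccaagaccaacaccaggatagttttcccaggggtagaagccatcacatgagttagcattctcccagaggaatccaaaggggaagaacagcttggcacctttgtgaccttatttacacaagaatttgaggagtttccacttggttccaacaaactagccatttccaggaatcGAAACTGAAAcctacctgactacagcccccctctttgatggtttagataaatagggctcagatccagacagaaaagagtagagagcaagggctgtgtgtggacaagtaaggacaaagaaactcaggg
Tgtp2: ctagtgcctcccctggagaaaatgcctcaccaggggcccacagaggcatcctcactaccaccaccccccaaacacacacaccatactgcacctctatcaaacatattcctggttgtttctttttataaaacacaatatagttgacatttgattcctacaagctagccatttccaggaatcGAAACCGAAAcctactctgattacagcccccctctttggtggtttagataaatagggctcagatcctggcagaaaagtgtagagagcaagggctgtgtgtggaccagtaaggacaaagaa
Irgm1: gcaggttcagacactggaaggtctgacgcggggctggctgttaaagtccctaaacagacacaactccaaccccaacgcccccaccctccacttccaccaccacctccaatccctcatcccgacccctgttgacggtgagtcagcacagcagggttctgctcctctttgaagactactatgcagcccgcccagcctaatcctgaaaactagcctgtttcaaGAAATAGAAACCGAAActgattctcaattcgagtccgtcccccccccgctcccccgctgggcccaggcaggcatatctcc

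Other interferon-stimulated genes had 21 falls and 8 rises of 31 (median -0.64). Xaf1, a proapoptotic factor, fell from 19.7, 19.0 and 22.1 CPM to 3.57, 4.69 and 4.22 CPM (-2.05 ± 0.12), Ifit2, which binds viral RNA complexes, from 46.2, 45.7 and 47.0 CPM to 12.7, 12.3 and 14.0 CPM (-1.76 ± 0.08), and Irf7, the factor that amplifies interferon, by 1.37. Against this direction, genes of membrane antiviral proteins were among the rises: Ifitm3 from 2.08, 2.39 and 1.79 CPM to 43.7, 46.5 and 37.5 CPM (3.82 ± 0.10), Ifitm2 from 12.3, 9.92 and 9.83 CPM to 58.6, 66.7 and 51.1 CPM (2.35 ± 0.10) and Ifitm1 by 1.75. The windows of Xaf1, Ifit2 and Irf7 hold no exact match to the interferon element as searched. Genes of MHC class I and antigen processing had 5 rises and 9 falls of 22 (median -0.07), and 6 falls without NFAT2-CA replicate 3. B2m did not pass (-0.03 ± 0.05, adjusted p = 0.69), the immunoproteasome genes Psmb10 and Psmb8 fell by 0.76 and 0.50, and H2-Q6 and H2-Q7, which share sequence, rose by 0.60 and 0.41.

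Surface genes anchored by GPI or of the Ms4a family had 12 falls and 1 rise of 16 (median -0.80), and summed to 7228, 7392 and 7977 CPM in Control and 2155 to 2248 CPM with NFAT2-CA. Thy1 was 4521 to 4989.8 CPM of the sum in Control and 632 to 658 CPM of it with NFAT2-CA. Ly6c2, a marker of memory-type T cells, went from 49.9, 42.4 and 50 CPM to 0.818, 1.30 and 1.34 CPM (-4.50 ± 0.15), and Ms4a4c from 16.1, 16.7 and 21.8 CPM to 0.335, 0.715 and 0.346 CPM (-3.71 ± 0.16). Cd24a was the 1 rise. Both families have close copies next to each other, so reads may be divided between members.

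Cytotoxic granule genes had 12 rises and 6 falls of 23 (median 0.17; 6 higher and 6 lower in the authors' table). Nkg7, a granule membrane protein, rose from 8.80, 10.2 and 9.37 CPM to 115, 121 and 114 CPM (3.49 ± 0.07), and Stx11, needed for granule fusion, from 14.2, 15.9 and 15 CPM to 65.6, 63.8 and 61.1 CPM (2.01 ± 0.07). The protease gene Gzmb fell from 217, 213 and 233 CPM to 78.2, 74.1 and 60.8 CPM (-1.63 ± 0.08), and the docking genes Rab27a and Unc13d fell by 0.52 and 0.40, beside Sytl2.

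Actin cytoskeleton genes fell, 26 of 46, with 6 higher and a median of -0.28. Actb went from 2991, 2895 and 2819 CPM to 1324, 1389 and 1332 CPM, and Dock2, an exchange factor for Rac in lymphocyte migration, from 693, 695 and 628 CPM to 304, 301 and 318 CPM (-1.12 ± 0.06). The motors Myo1f and Myo1g fell by 1.88 and 1.12 and the kinase gene Stk10 by 1.17. Vcl, which links integrins to actin, rose from 7.07, 6.70 and 4.04 CPM to 21.4, 20.4 and 24.7 CPM (1.76 ± 0.15).

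Cell death and p53 genes had 10 rises and 22 falls of 44 (median -0.17; 6 higher and 5 lower in the authors' table). The BH3-only genes Bmf and Pmaip1, which promote apoptosis, rose from 7.92 to 9.52 and 5.35 to 6.12 CPM to 35.6 to 41.1 and 24.4 to 30.0 CPM, by 2.04 and 1.99. Trp53 fell by 0.65, and Bid had -0.98 ± 0.14, which the authors' deposited table does not call (FDR 0.12).

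Among genes of DNA methylation and Polycomb, 10 rose and 8 fell of 30 (median 0.02; 7 higher and 3 lower in the authors' table), and the TET dioxygenases, which oxidise methylcytosine, diverged. Tet1 fell from 35.3, 35.2 and 28.9 CPM to 10.3, 10.5 and 13.5 CPM (-1.46 ± 0.11) and Tet2 rose from 107, 121 and 109.8 CPM to 215, 190.5 and 289 CPM (1.01 ± 0.16, and 0.84 without NFAT2-CA replicate 3). Uhrf1, which guides maintenance methylation behind the replication fork, rose from 10.2, 7.91 and 7.90 CPM to 31.8, 31.3 and 25.1 CPM (1.65 ± 0.10). Lysosome and autophagy genes had 18 rises and 13 falls of 37 (median 0.17; 10 higher and 7 lower in the authors' table), with the galactosidase gene Gla higher by 1.99 and the glucuronidase gene Gusb lower by 1.63. Of 36 proteasome genes, 7 rose, 12 fell and 17 did not pass (median -0.02; 2 higher and 1 lower in the authors' table), and the falls were 7 with TMM factors, after quantile normalization or without Control replicate 3, and 8 without NFAT2-CA replicate 3.

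Long noncoding RNA genes had 5 rises and 10 falls of 21 (median -0.20; 1 higher and 3 lower in the authors' table). Among host genes of small nucleolar RNAs, Snhg17, Snhg4, Snhg12 and Snhg1 were lower with log2 changes of -1.11, -0.69, -0.38 and -0.34 and Snhg8 and Snhg6 higher, with 0.41 and 0.35. The authors' deposited table calls Snhg17 and Snhg1 and not Snhg4, Snhg12, Snhg8 or Snhg6 (FDR 0.21, 0.078, 0.15 and 0.26). Of 8 GIMAP genes, GTPases that sustain lymphocytes, 4 fell and 1 rose (median -0.21): Gimap8 fell by 0.74, Gimap3 by 0.47, Gimap6 by 0.32 and Gimap4 by 0.28, and Gimap5 had 0.20 ± 0.06. Gimap5 is not called in the authors' deposited table (FDR 0.35). Of 186 solute carriers, 69 rose and 75 fell (median -0.06; 41 higher and 27 lower in the authors' table), and in that table the rises outnumber the falls. Slc13a3, a dicarboxylate carrier, rose from 0.0850, 0.0315 and 0.417 CPM to 17.3, 18.3 and 16.2 CPM, and Slc29a1, a nucleoside transporter, from 25.3, 24.3 and 25.9 CPM to 132, 134 and 134 CPM (2.36 ± 0.06). Slc16a6 and the zinc transporter Slc39a6 fell by 1.60 and 1.32.

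Genes changed at least 2-fold in the same direction sometimes lay side by side. Runs of at least 3 such neighbours among tested genes numbered 40, of which 23 were higher and 17 lower. The longest was on chromosome 1, from 173468485 to 173942673 in the files' coordinates (mm10), where Ifi206, Ifi214, Ifi213, Ifi209, Ifi208, Mndal and Ifi203 all fell (median -3.56). On chromosome 11, from 48985327 to 49096975, Tgtp1, 9930111J21Rik2, Tgtp2 and Ifi47 fell, with a median of -2.52. On chromosome 19, from 34550694 to 34650010, Ifit2, Ifit1bl1, Ifit1bl2 and Ifit1 fell (median -1.55), Ifit1bl1 from 38.7, 37.0 and 49.6 CPM to 0.297, 0.0838 and 0.632 CPM. Ifit1bl1 thus passed the filter only through Control. Ifit1bl2 and Ifit1 are not called in the authors' deposited table (FDR 0.13 and 0.084). These runs are clusters of related genes that may share reads.

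Other runs joined unrelated genes. On chromosome 15, from 82147181 to 82244749, Srebf2, Gm49502, Tnfrsf13c and Cenpm rose (median 1.39). Tnfrsf13c, the BAFF receptor gene of B cells, went from 0.170, 0.409 and 0.125 CPM to 10.1, 12.1 and 10.5 CPM (3.27 ± 0.15), and the centromere gene Cenpm from 4.08, 2.93 and 3.17 CPM to 10.6, 10.8 and 9.06 CPM (1.35 ± 0.13). On chromosome 12, from 35497974 to 36042501, Ahr, the gene models Gm34047 and 9130015A21Rik and Tspan13 rose (median 1.26). Both gene models, Gm34047 and 9130015A21Rik, had 0 CPM throughout Control and 1.04 to 2.08 CPM with NFAT2-CA. Like Tnfrsf13c, they passed the filter only through NFAT2-CA, which fixed the direction of their change. Without the gene models, Ahr and Tspan13 would be too few to count as a run. Tspan13, a tetraspanin gene, rose from 112, 105 and 109 CPM to 229, 230.5 and 215 CPM.

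Markers of CD4 T cells were present at high levels in all libraries. Their 10 genes summed to 6574 to 6912 CPM in Control and 7556 to 8066 CPM with NFAT2-CA, 5 of them higher and 2 lower. For other cell types, most defining markers were at or near 0. Of 10 B cell markers 5 were listed, and their sum was 413 to 424 CPM in Control and 207 to 212 CPM with NFAT2-CA, nearly all of it Ighm (408, 417 and 419 CPM to 208, 210.2 and 205 CPM), while Cd79a was at most 0.693 CPM. Tnfrsf13c rose in these same libraries. Of the CD8 markers, Cd8a was at most 0.632 CPM in any library, and Cd8b1 rose from 12.5, 12.3 and 13.2 CPM to 28.6, 30.5 and 27.8 CPM (1.13 ± 0.08). Natural killer markers, 2 of 10 listed, summed to 2.39 to 3.72 CPM over the 6 libraries.

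Of 14 myeloid and dendritic cell markers 8 were listed, with a sum of 103 to 116 CPM in Control and 106 to 119 CPM with NFAT2-CA. Within them Fcgr3 fell from 25.8, 26.7 and 31.5 CPM to 4.39, 5.91 and 3.54 CPM and Itgam from 7.82, 9.29 and 6.83 CPM to 0.632, 0.796 and 0.675 CPM. The MHC class II genes H2-Ab1 and H2-Eb1 rose by 0.52 and 1.17, and the defining gene Itgax was at most 0.112 CPM. Of 7 mast cell and basophil markers, Kit and Hdc were listed. Hdc rose as given above, from at most 1.02 CPM to 76.4 CPM or more, while Kit fell from 2.85, 2.49 and 2.25 CPM to 0.930, 1.13 and 0.928 CPM. Kit is not called in the authors' deposited table (FDR 0.27). Erythroid and platelet markers summed to at most 3.27 CPM. Of 7 stromal and endothelial markers 4 were listed, with a sum of 163 to 178 CPM in Control and 152 to 166 CPM with NFAT2-CA. Whether a change in a minor cell type had a part in the changes of Ighm, Cd8b1, Fcgr3, Itgam or the MHC class II genes was not tested.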

How the data were processed

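Paired-end RNA-seq of 9 libraries, 3 per vector, was deposited as gene values in CPM, to which the authors added 0.0001; that offset was subtracted, after which all libraries had the same total. The deposited table also holds the authors' DESeq2 comparison, with log2 fold changes, linear fold ratios and p-values (its other columns were not used); the submitters' processing notes name Partek 10, DESeq2 and mm10. Aligner, annotation and strand setting: not given in the sources used here. Whole reads could not be recovered for enough values for a count test (81.5% to 84.6% of low values were within 0.1 of a read, 95 needed), so depths are estimates and floors cover counting error only.

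Groups came from the sample labels. Log2(CPM + 1) was fitted with limma 3.58.1 (R 4.3.3, trend and robust variance) with 1 mean for each group and all 9 libraries, and NFAT2-CA minus Control was tested with Benjamini-Hochberg adjustment over genes at 1 CPM or more in 3 of the 6 libraries compared. The script was tested on simulated data. Replicates differed by more than sampling noise (median chi-square 1.29 to 3.22, against 0.455).

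Named genes were Nfatc1, the 16 largest rises and falls of at least 50 CPM without overlap, the 10 largest gains and losses in CPM, up to 4 called members a direction of each list at 10 CPM or more, whole small families, preset readout genes and members of the longest runs. The comparison, gene lists and readouts were chosen with earlier results of these data known. Promoter windows came from RefSeq (GRCm38.p6) and matched 9090 of 12798 tested genes; shares are given only for lists with a window for at least 80% of their tested members. Alternatives changed the pseudocount, filter, scaling (TMM, the trimmed mean of M values, and quantile), libraries and block, and took the authors' table. A few genes that the naming rule takes in are not reported here.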

Additional observations from a re-analysis of the deposited data

How the results depend on the processing

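Of 60 values of the counts over all genes under the alternatives, 56 stayed within 1.5 times the main count and 4 did not, and 0 calls reversed direction. The authors' deposited table gives 3602 calls, 1884 higher and 1718 lower, and a pseudocount of 5 left 978 calls of at least 2-fold. Leaving out each library in turn gave 7883 to 8332 calls, 3456 to 3725 higher and 4427 to 4639 lower, with 1791 to 1856 of at least 2-fold. With TMM factors the share of calls that were higher was 48.5%, against 43.5%, and the median of all genes moved by 0.05. By the authors' DESeq2 values, 42 list counts moved by more than 1.5 times and 75 of 420 named genes lost their call. Outside it, 17 list counts moved by more than 1.5 times and 20 named genes changed their call; the cause was not tested. Same-numbered replicates did not deviate together (correlations 0.0, -0.07 and -0.05). These values cannot show whether same-numbered libraries share a mouse or culture, which the labels do not state. The fit with a replicate block gave 8439 calls, 3676 higher and 4763 lower. The motif comparison of 1.5-fold groups was not run because windows were found for too few of those genes (72.4% and 75.6%). Depth limits genes near the floor of 3 reads, 0.0947 to 0.128 CPM.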
